A study of Mus musculus with 3 samples.

Results

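In droplet libraries of dispersed mouse testis profiled by single-cell RNA-seq, 1705 barcodes carried few RNA molecules and were rich in transcripts of 4 markers. These were the acrosomal genes Acrv1, Spaca1 and Tmem190, and Pdilt, a gene of the endoplasmic reticulum. Members were chosen by these values: a barcode had 700 to 2500 UMIs (unique molecular identifiers, each standing for 1 captured RNA molecule), over 500 detected genes and under 10.0% of UMIs from mitochondrial genes, with at least 3 UMIs and at least 0.3% of its UMIs from the 4 markers together, and under 5.0% of its UMIs from the protamine and transition protein genes Prm1, Prm2, Tnp1 and Tnp2. They numbered 579 in the wild type (WT), 850 in the knockout (KO) and 276 in the knock-in (KI) library. In all, 21048 barcodes passed the same limits on UMIs, genes and mitochondrial share. With no upper limit on UMIs, 29148 barcodes of at least 700 UMIs passed the limits on genes and mitochondrial share. The levels of the 4 markers and the low share of the protamine genes are therefore a description of the gate and not a finding.

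The study compared dispersed cells of the seminiferous tubules of adult C57BL/6 males with 1 droplet library per genotype, and the labels give an age of 8 weeks where the study's methods give a range of ages. WT carried both alleles of Ddx25, which encodes the testis RNA helicase GRTH. KO lacked the gene throughout the body. KI carried a human GRTH gene with a point mutation under which the phosphorylated form of the protein is missing while the non-phosphorylated form is made. No cell type-specific driver and no sort was used, each library came from 1 mouse by the labels or from a small pool of mice by the study's methods, and no group was repeated. With 1 library per genotype no test between genotypes was possible. Classes of barcodes were compared within each of the 3 libraries, which differ in genotype, and those comparisons are given without a test because the gate had used counts of the same barcodes. Where 95% intervals are given (exact Poisson for levels, Clopper-Pearson for shares), they cover counting error only, and most values stand without one.

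The acrosome is a Golgi-derived vesicle that spreads over the nucleus of the spermatid after meiosis and holds the enzymes and membrane proteins with which sperm meet the egg. Acrv1 encodes a protein of the acrosomal matrix, Spaca1 and Tmem190 encode proteins of the acrosomal membrane, and Pdilt encodes a testis-specific disulfide isomerase of the endoplasmic reticulum that acts in the folding of sperm surface ADAM proteins. Transcripts of acrosomal genes build up in round spermatids, before protamine transcripts take over. In droplet data, RNA released from broken cells enters every droplet, and droplets without a cell still yield some UMIs from this free RNA. A barcode of few UMIs need not mark a whole cell, and the counts by themselves do not show what its droplet held.

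The sequences before the start sites of the 4 gate markers are shown because the gate rests on these genes. They are upstream, non-transcribed bases by RefSeq and by the annotation of the count tables (GRCm38.p6), printed 5′ to 3′ on the strand of the gene. Acrv1 is at chr9:36692970-36693219 (plus strand), Spaca1 at chr4:34050192-34050315 (minus), Tmem190 at chr7:4782690-4782936 (plus) and Pdilt at chr7:119523490-119523732 (minus). Capitals mark an RFX core site (GTTGC, or GCAAC on the other strand), letters within the site bound by RFX factors, which act in spermatids.
Acrv1: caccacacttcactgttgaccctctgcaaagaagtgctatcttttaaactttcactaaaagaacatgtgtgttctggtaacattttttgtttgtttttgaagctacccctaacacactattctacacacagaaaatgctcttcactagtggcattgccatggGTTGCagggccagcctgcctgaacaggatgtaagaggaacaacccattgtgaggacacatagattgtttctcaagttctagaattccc
Spaca1: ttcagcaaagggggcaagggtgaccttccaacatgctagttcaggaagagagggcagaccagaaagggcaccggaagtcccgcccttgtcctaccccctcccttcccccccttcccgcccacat
Tmem190: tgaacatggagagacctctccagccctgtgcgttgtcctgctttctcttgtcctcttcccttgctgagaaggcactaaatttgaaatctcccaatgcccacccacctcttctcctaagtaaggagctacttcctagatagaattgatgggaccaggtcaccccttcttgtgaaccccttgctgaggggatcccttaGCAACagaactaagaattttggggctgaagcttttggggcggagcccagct
Pdilt: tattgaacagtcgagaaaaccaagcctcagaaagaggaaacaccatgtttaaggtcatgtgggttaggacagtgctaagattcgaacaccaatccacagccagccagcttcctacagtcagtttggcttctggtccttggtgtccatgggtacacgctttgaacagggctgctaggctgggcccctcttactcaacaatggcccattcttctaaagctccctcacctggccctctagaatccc
Acrv1 held 1 RFX core site, which began 88 bases before the RefSeq start, and Tmem190 held 1 at 54 bases. Spaca1 and Pdilt held none in the 250 bases before their RefSeq starts. Of 27025 RefSeq promoter windows of 250 bases, 30.1% held this core site on either strand. The core site of the cAMP response element (CRE; TGACG, or CGTCA on the other strand), to which the spermatid factor CREM binds, had 2 copies in the Spaca1 window and none in the others, against 17.9% of all windows with at least 1. Both copies lay in the 126 bases between the Spaca1 starts of RefSeq and of the tables' annotation, which are not printed. The full palindromic element TGACGTCA was in none of these 4 windows and in 1.62% of all. A match is a description of letters, and the RFX core site was added after the sequences had been seen.

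The libraries held 73150373 to 91388296 UMIs. Ddx25, the targeted gene, had 77 UMIs (104 CPM, counts scaled to a sum of 1e6 over the class) in WT members, 0 in KO members and 26 (71.0 CPM) in KI members. Against a floor of 3 UMIs, the KO level was at least 36.6-fold lower than the WT level, as the label states. No barcode was a member in more than 1 library, 2 WT and 2 KO members had a barcode with at least 4000 UMIs in another library, and none was 1 base away from such a barcode of its own library. Among the members, 12 Sertoli markers together took 0.00728% of UMIs in WT, and 0.0166% and 0.0180% in KO and KI, 10 macrophage markers 0.00243% in WT, and 0.00322% and 0.0156% in KO and KI, and 12 markers of stromal, myoid and Leydig cells 0.000539 to 0.00164%, and all 4 haemoglobin genes were at 0. Sertoli transcripts thus moved with both genotype comparisons, although WT was the highest in the background (0.0297%, and 0.0114% and 0.0104% in KO and KI), with 4 of the 12 markers at 0 in WT members and 2 each in KO and KI. The strict members had 0.00652%, 0.00912% and 0.00904%. Macrophage transcripts moved with the KI comparison, at 0.0224% in the strict KI members against 0.00272% in the KI background, with 1 of the 10 markers at 0 in KI members and 5 in WT, and the part of either cell type in the genotype differences was not tested.

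Members made up 17.1% (15.9 to 18.4) of the low-UMI barcodes in WT, and 6.27% (5.87 to 6.69) and 6.72% (5.97 to 7.53) in KO and KI. The WT share lay above the other shares beyond counting error, but the KO library had 13558 barcodes in the UMI window against 3383 in WT and 4107 in KI. Barcodes that passed the same gate with at least 4000 UMIs, called deep barcodes from here on, numbered 132 in WT, and 91 and 84 in KO and KI. There were thus 4.39 members per deep barcode in WT, and 9.34 and 3.29 in KO and KI. Whether the libraries differed in the number of such cells or in droplet loading and free RNA cannot be told apart.

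The lower limit of the window lay near the peak of background totals, at a distance that differed between libraries. The most frequent total among barcodes of 100 to just under 700 UMIs was 250 to 299 in WT and KI and 450 to just under 500 in KO. Barcodes of 300 to just under 500 UMIs, whatever they held, are called background barcodes here and numbered 26144 in WT, and 23333 and 28893 in KO and KI. Their marker share was 0.0964% in WT, and 0.0897% and 0.0940% in KO and KI, so a barcode of 700 UMIs needed few marker UMIs above this level to pass. The share that passed the marker, protamine and mitochondrial limits was also taken over all barcodes of a UMI bin, with no limit on genes. Among barcodes of 600 to just under 700 UMIs, below the window, this share was 2.85% in WT, and 2.44% and 3.02% in KO and KI. In WT it rose to 17.5% at 800 to just under 1000 UMIs. In KO it was 5.47% in that bin and reached 9.12% at 1500 to 2500 UMIs. In KI it was 4.83% in the same bin and 16.5% at 1500 to 2500 UMIs.

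**Figure D1:**
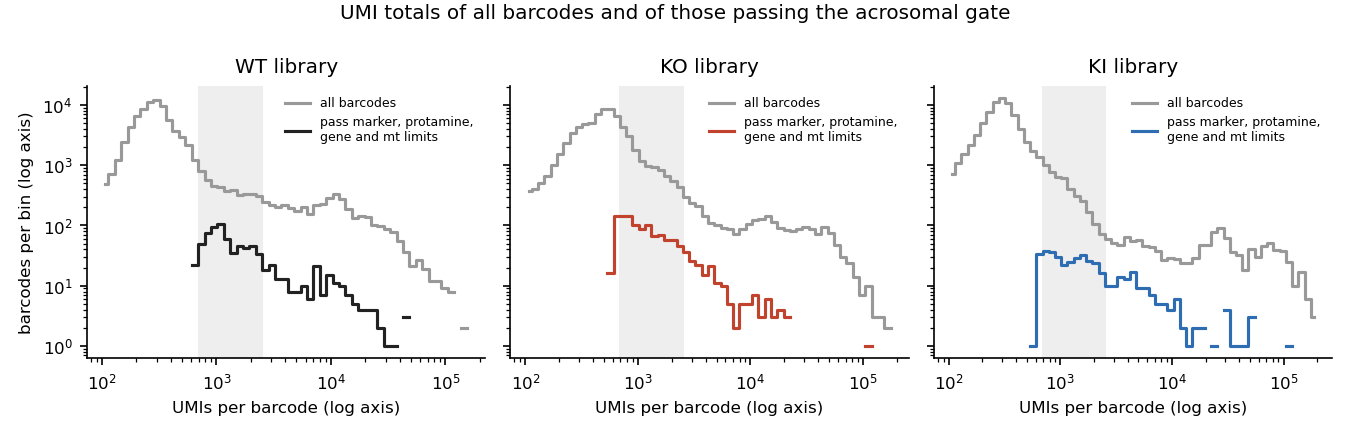
Number of barcodes per bin (log axis) against UMIs per barcode (log axis) in each library, for all barcodes (grey) and for those that pass the marker, protamine, gene and mitochondrial limits (coloured). The shaded range is the members' window. Below the window all barcodes together peak at 250 to 299 UMIs in WT and KI and at 450 to just under 500 in KO, closer to the lower limit of 700 UMIs.

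At the edge of the gate, 44 WT, 125 KO and 42 KI members had a marker share of 0.30 to 0.35%, and 54, 136 and 58 barcodes lay just outside it at 0.25 to 0.30%. Members with exactly 3 marker UMIs numbered 48 in WT, and 219 and 83 in KO and KI. The gate therefore cut through a continuous range, more so in KO and KI. A narrower set, of members with at least 1000 UMIs and 0.6% marker UMIs, held 251 WT, 272 KO and 141 KI barcodes, and its values, as those of the strict members, are given beside the comparison with deep barcodes. It and the comparison with background barcodes were added after the totals had been seen.

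The median member had 1118 UMIs in WT, and 1115.5 and 1242.5 in KO and KI. Median detected genes were 859, 864 and 935.5. Deep barcodes had medians of 9198, 5920 and 6638.5 UMIs. When each barcode was thinned to 700 UMIs, members held a median of 586 genes in WT, and 584.5 and 574 in KO and KI. The corresponding medians were 574.5, 591 and 586.5 for deep barcodes, and 539, 557 and 556 for the other low-UMI barcodes. At equal depth the members thus spread their UMIs over about as many genes as the deep barcodes and over more than the other low-UMI barcodes. No doublet caller was run, since the members lie at the low end of the totals.

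By the rule, the gate markers were high among the members. Acrv1 stood at 2592 CPM in WT members, 2004 in KO and 2835 in KI, against 171, 185 and 189 CPM in background barcodes. Spaca1 stood at 2119, 2227 and 3307 CPM, with a background of 472, 429 and 454. Tmem190 stood at 2213, 1571 and 2177 CPM over a background of 271, 214 and 228. Pdilt was the lowest of these genes, at 909, 1006 and 1671 CPM over 49.5, 69.0 and 69.3. After thinning to 700 UMIs, 81.2% of WT, 67.3% of KO and 71.7% of KI members still had an Acrv1 UMI, compared with 9.95%, 8.87% and 8.72% of the other low-UMI barcodes. Deep barcodes thinned alike had it in 63.6%, 72.5% and 82.1%. Together the markers took 0.783% of member UMIs in WT, and 0.681% and 0.999% in KO and KI, and 0.416%, 0.501% and 0.524% of deep UMIs. The 0.3% limit thus selected members with a higher share than the deep barcodes that passed it.

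The members were richer than the background barcodes in transcripts of long genes, and Pcdh9 stood out most. Of 6609 genes with a mean of at least 20 CPM, 1290 (19.5%) were at least 2-fold higher among members in all 3 libraries, on the scale of log2(CPM + 5), and 7 (0.106%) were at least 2-fold lower. The number of lower genes rested on the settings: 948 were higher and 341 lower under TMM (trimmed mean of M-values) scaling, which set the median over all genes at −0.49 in WT, and −0.37 and −0.42 in KO and KI, in place of 0.06, −0.08 and −0.09. With marker shares of at least 0.6% there were 453 lower genes, and 513 among the strict members. The level was averaged over members and background, so genes could pass it by being high among members, and of the 5807 genes that reached 20 CPM in the background alone 539 were higher and 10 lower. Pcdh9, which encodes the cell adhesion protein protocadherin 9 and spans 877 kb (chr14:93013410-93890679, minus strand), had 1514 CPM (1427 to 1605) in WT members, 871 (816 to 929) in KO and 1207 (1097 to 1325) in KI. Its background level was 28.5, 17.1 and 22.2 CPM. The log2 difference of member over background was 5.5 in WT, and 5.31 and 5.48 in KO and KI, and in the smallest of these 3 values no other gene of at least 50 CPM was higher. After thinning to 700 UMIs, 49.1% of WT, 255 of 850 KO and 29.3% of KI members had a Pcdh9 UMI, against 2.21%, 1.31% and 1.31% of the other low-UMI barcodes. Deep barcodes thinned alike had it in 40.9%, 38.5% and 44.0%, above the members in KO and KI, with counting intervals that overlapped in every library.

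The next genes in the same order were also long, and were chosen by this order after the values had been seen. Agbl1, an enzyme that trims glutamate from tubulin, spans 895 kb and had 851, 579 and 672 CPM in WT, KO and KI members over a background of 13.4, 18.3 and 15.7. Lrrtm3, a leucine-rich repeat membrane protein known from synapses, spans 162 kb and had 975, 601 and 1019 CPM over 18.9, 20.9 and 20.2. The chloride channel gene Cftr, of 152 kb, had 588, 386 and 535 CPM over 12.7, 11.8 and 11.2. For each of these genes every library's members lay far above every library's background. Among the 16 genes highest over background were also the glypican gene Gpc5 (1433 kb; log2 difference 4.56, 4.40 and 4.91), the netrin-G ligand gene Lrrc4c (4.73, 4.45 and 4.70), the catenin gene Ctnnd2 (4.39, 4.33 and 4.66), the contactin gene Cntn6 (4.66, 4.26 and 4.28) and Csmd3 (4.52, 4.35 and 4.49). Some of these genes, such as Lrrtm3 and Cntn6, are better known from neurons than from testis, but no fixed list of neuronal genes was counted. P2rx3, an ATP-gated ion channel gene of 38.9 kb, was the shortest of them, with 407, 336 and 459 CPM over 8.59, 12.1 and 15.9.

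**Figure D2:**
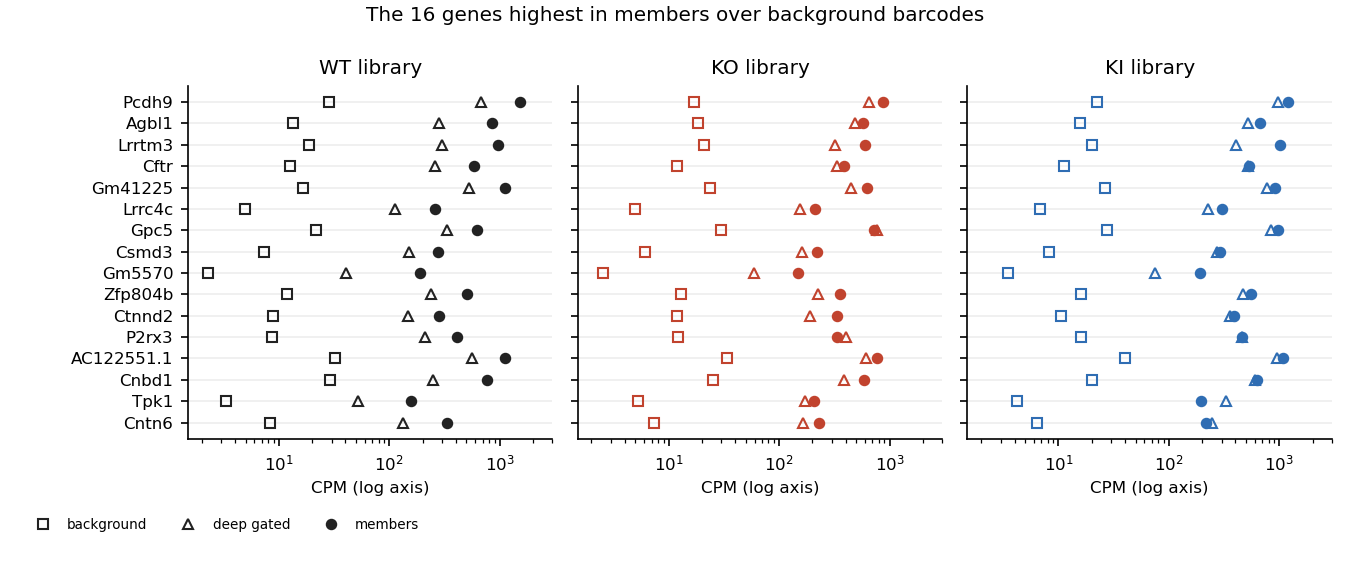
Level in CPM (log axis) of the 16 genes highest over background, in members (filled circles), deep barcodes (triangles) and background barcodes (squares) of each library. Pcdh9 lies between 871 and 1514 CPM in the members and between 17.1 and 28.5 CPM in the background.

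Genomic span and the excess over background went together across the whole range of spans. Genes under 10 kb had a median log2 difference of −0.55 in WT, and −0.38 and −0.48 in KO and KI. Genes of 100 to 300 kb had 1.41, 0.97 and 1.03, and those of 300 kb or more had 2.48, 2.14 and 2.19, with 231 of 305 (75.7%) higher in all 3 libraries. Among the 141 genes of this span that reached 20 CPM in the background alone, 81 were higher and the medians were 1.74, 1.44 and 1.37, against −0.67, −0.42 and −0.55 for genes under 10 kb. Of the 1290 higher genes, 591 (45.8%) spanned 100 kb or more, as did 16.5% of the genes tested. These genes took 19.2% of member UMIs in WT, and 16.2% and 17.7% in KO and KI, and 6.06%, 6.98% and 7.0% of background UMIs. The nuclear noncoding RNA Malat1, the transcript of a short gene that stays in the nucleus, was also high, at 2932 CPM (2810 to 3058), 1902 (1820 to 1987) and 1974 (1833 to 2124) over 275, 257 and 287. Whether these UMIs came from unspliced RNA was not tested, since the tables give 1 count per gene.

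**Figure D3:**
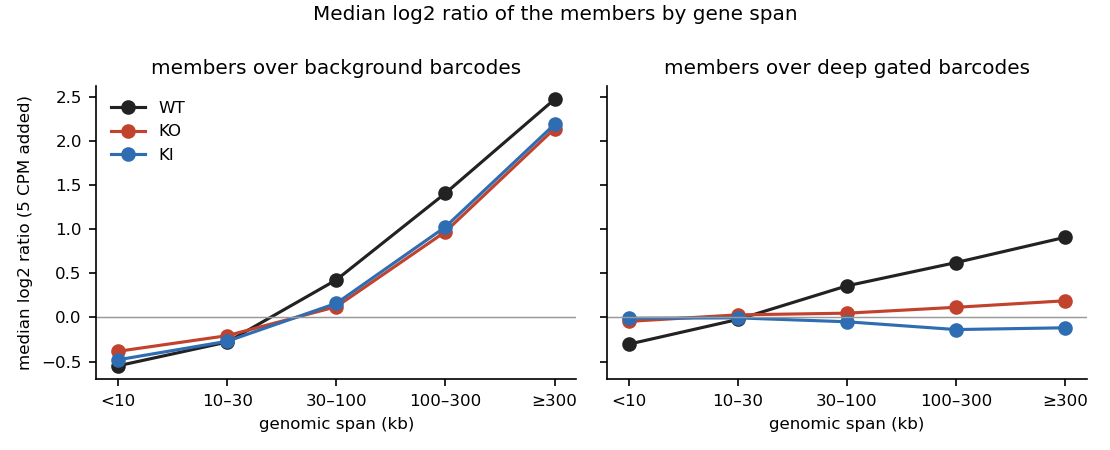
Median log2 ratio of members, with 5 CPM added, by genomic span of the gene (kb), over background barcodes (left) and over deep barcodes (right) of each library. Over background the median climbs from −0.55, −0.38 and −0.48 under 10 kb to 2.48, 2.14 and 2.19 at 300 kb or more in WT, KO and KI. Over deep barcodes it does so in WT, to 0.91, which was not kept with at least 0.6% markers in both classes (−0.20).

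Some germ cell gene groups lay above the background in the same comparison and others did not. Of 29 measured acrosomal genes other than the gate markers, 14 were higher among members in all 3 libraries and none was lower, with medians of 1.03, 0.98 and 1.20. Of 19 genes of sperm ADAM proteins and endoplasmic reticulum chaperones 11 were higher (medians 1.40, 1.20 and 1.15), and of 15 dynein heavy chain genes of the axoneme 8 were higher (1.58, 1.46 and 1.14). Under TMM scaling 9 acrosomal genes were higher (0.42, 0.67 and 0.84), 5 ADAM and chaperone genes were higher and 2 lower (0.79, 0.88 and 0.78), and 6 dynein genes were higher (1.02, 1.16 and 0.78). The share over all genes was 19.5%, the dynein genes are long, and the gate had used counts of the same barcodes. Of 14 genes of spermatid kinases, sperm channels and acrosome-related products, some of which the study had picked for qRT-PCR, 3 were higher (medians −0.01, −0.20 and −0.14), a share near that of all genes. Of 10 spermatid transcription factor genes 1 was higher (0.22, −0.16 and 0.01), of 8 genes of acrosomal vesicle traffic 1 was (−0.32, −0.45 and −0.34), and of 11 chromatoid body and piRNA genes none was (−0.52, −0.23 and −0.75). Of 17 spermatocyte genes 1 was higher (medians −0.83, −0.55 and −1.04), and none of 15 late spermatid genes was (−0.53, −0.40 and −0.37). Ribosomal protein genes had medians of −1.21, −0.64 and −0.87, with 0 of 77 higher and 1, Rps15, lower, and 25 lower under TMM scaling. The other lowest genes of at least 50 CPM were 4933406F09Rik, Rgs10, Dgkeos, Nme8, Anapc11, Prm1 and Pfn1. Prm1, which the gate limits, had 5190, 2318 and 2745 CPM in members over 15458, 4498 and 5558.

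Catsper3, a subunit of the sperm calcium channel and 1 of the 3 higher genes of the kinase and channel list, had 670, 614 and 926 CPM in the members of WT, KO and KI over a background of 72.4, 60.1 and 63.7. Spink2, an inhibitor of acrosomal protease, had 2834, 2476 and 2851 CPM over 1678, 1536 and 1578, a smaller excess in every library. Clgn, the testis chaperone calmegin, had 834, 984 and 1117 CPM over 312, 388 and 359. Pdia3, another disulfide isomerase, had 309, 528 and 754 CPM over 93.3, 114 and 120.

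The members were not uniform along their UMI totals, and the libraries differed at the low end. In the 203 WT members under 1000 UMIs, Pcdh9 stood at 1008 CPM, followed by 1583 from 1000 UMIs and 1739 from 1500 UMIs to the upper limit. The KO values were 402, 971 and 1128 CPM. In KI, the 102 members under 1000 UMIs had 23.5 CPM of Pcdh9, close to the background level of 22.2, followed by 1047 and 1832. Lrrtm3 behaved alike in KI, with 11.8 CPM under 1000 UMIs and 1393 from 1000 to under 1500, whereas WT had 1140 and 1055. Long genes took 6.65% of the UMIs of these 102 KI members, and 15.6% and 10.4% of those of the WT and KO members of the same totals. Apart from the gate markers, with a share of 0.396%, these KI members had levels of Pcdh9, Lrrtm3 and long genes near those of background barcodes.

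Above the window, gated barcodes of over 2500 and under 4000 UMIs continued the members' pattern, and the deepest barcodes left it. In WT, KO and KI, Pcdh9 had 2057, 1232 and 1622 CPM in this range, 1335, 1138 and 1699 from 4000 to under 8000 UMIs, and 471, 430 and 708 from 8000 UMIs on. Malat1 fell likewise from 4078, 2644 and 3285 CPM to 829, 916 and 1039. Tssk1, a testis-specific serine kinase gene, rose from 261, 266 and 167 CPM at 1500 to 2500 UMIs to 641, 744 and 612 from 8000 UMIs on. Its course was not steady, with 342, 385 and 529 CPM in members under 1000 UMIs and still 155 CPM in KI from 4000 to under 8000 UMIs. Sycp3, a spermatocyte gene of the synaptonemal complex, stood at 74.1, 234 and 164 CPM in members under 1000 UMIs and at 14.9, 38.6 and 16.8 in the deepest barcodes, with a background of 174, 222 and 241. The deep class was therefore itself mixed, with 74 of 132 WT, 37 of 91 KO and 34 of 84 KI barcodes at 8000 UMIs or more.

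**Figure D4:**
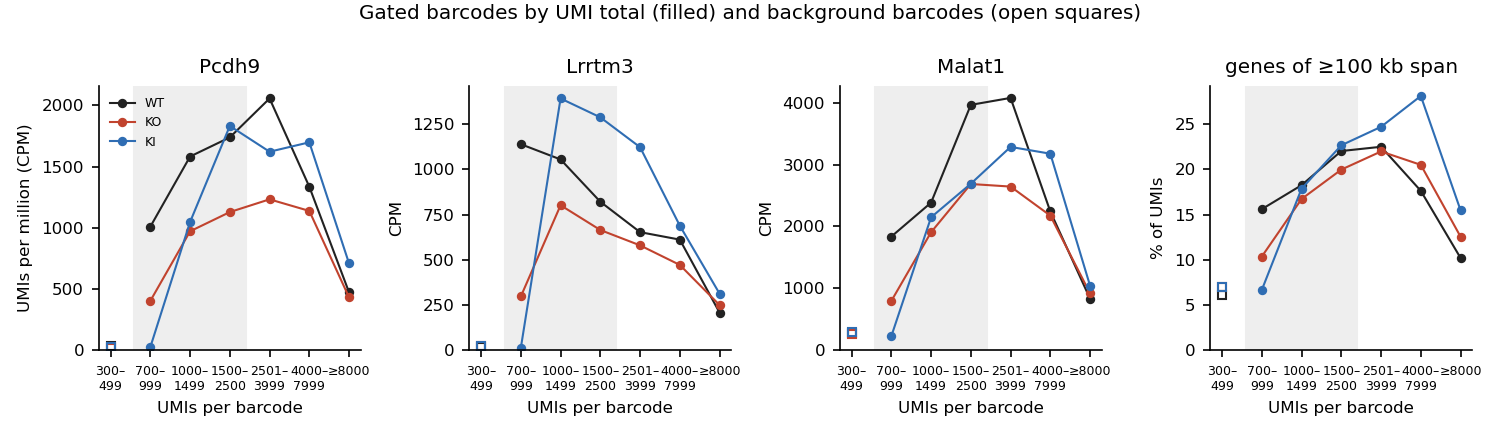
Levels of Pcdh9, Lrrtm3 and Malat1 (CPM) and percent of UMIs from genes of 100 kb or more, by UMI bin, in gated barcodes (filled points) and background barcodes (open squares) of WT, KO and KI. The shaded bins hold the members. Among gated barcodes Pcdh9 is lowest, at 23.5 CPM, in KI members under 1000 UMIs, and it falls again from 8000 UMIs on.

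Gene by gene, the members resembled the deep barcodes of their own library more than its background. Pearson's r of log2 levels over 6696 genes, which are not independent and share depth, was 0.894 with deep barcodes in WT, and 0.918 and 0.909 in KO and KI. It was 0.636, 0.783 and 0.706 with background barcodes. The genes had been chosen by their levels in members and deep barcodes. Over the 5808 genes that reached 20 CPM in the background alone, r was 0.925, 0.926 and 0.926 with deep and 0.728, 0.843 and 0.787 with background barcodes. Both members and deep barcodes had passed the same gate.

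Few genes differed from the deep barcodes alike in all 3 libraries. Of 6696 genes, 46 (0.687%) were at least 2-fold higher and 5 (0.0747%) at least 2-fold lower among members, and the medians over all genes were 0.15 in WT, and 0.04 and −0.04 in KO and KI. Under TMM scaling the split was 21 higher and 23 lower, and with marker shares of at least 0.6% it was 27 and 27. For 36 of the 46 higher genes the background level lay above the deep level in all 3 libraries, and for 31 it lay above the member level too. Calm2, a calmodulin gene, had 147, 364 and 289 CPM in WT, KO and KI members, 44.9, 111 and 50.7 in deep barcodes and 417, 520 and 613 in the background. Pabpc6, a poly(A)-binding protein gene, had 60.7, 164 and 107 CPM in members, 16.1, 42.5 and 24.9 in deep and 170, 277 and 262 in background barcodes. The same order of background, member and deep level held for Sycp3, Stmn1, Cks2, Diablo, Zmynd10, Rps27a and 1700029P11Rik in every library. The part that free RNA had in these differences was not tested.

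Among the 12 highest, 3 genes went against that order. Chst9, a sulfotransferase gene, had 90.3, 93.6 and 128 CPM in members, 11.4, 32.1 and 25.8 in deep barcodes, and under 1 CPM in the background (0.524, 0.956 and 0.572). The unnamed gene models Gm5570 and Gm16599 had 189, 148 and 191 CPM and 160, 119 and 147 CPM in members, 40.8, 59.7 and 75.5 and 38.2, 39.0 and 65.0 in deep barcodes, and no more than 3.53 and 10.9 in the background. Each of these genes spans over 100 kb (308, 118 and 143 kb). Of all 46 higher genes, however, 5 spanned 100 kb or more, against 1227 of the 6696 tested (18.3%). Chst9 was above the deep barcodes in the strict members too, with log2 differences of 1.13, 0.69 and 1.37. So were Gm5570, with 0.33, 0.49 and 0.44, and Gm16599, with 0.43, 0.87 and 0.71. None of these genes was still 2-fold higher in all 3 libraries.

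The 5 genes lower among members than in deep barcodes were Isg20, Kcne3, Ddi1, Nat6 and Cpsf4l. Isg20, an exonuclease gene, had 49.9, 68.1 and 68.3 CPM in members and 133, 188 and 173 in deep barcodes. Kcne3, a potassium channel subunit gene, had 93.0, 76.6 and 60.1 CPM against 199, 184 and 234, and Ddi1, a protease gene, had 43.1, 39.7 and 43.7 against 123, 110 and 94.6. Nat6 had 62.0, 39.7 and 60.1 against 153, 126 and 151. The members lay below the deep barcodes of every library for each of them, but none of the 5 was still 2-fold lower in all libraries among the strict members. Lrrc18, Rbm4b, Actg2, 1700013G24Rik, Pldi, Ypel3, 4930571K23Rik and Iqcf5 followed, with log2 differences between −0.90 and −1.72, and 4930571K23Rik and Iqcf5 were above 0 in all 3 libraries of the strict members.

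The long genes that set the members apart from background did not set them apart from deep barcodes alike in each library. Genes of 300 kb or more had a median log2 difference over deep barcodes of 0.91 in WT, and 0.19 and −0.12 in KO and KI. Pcdh9 had 676 CPM (635 to 719) in WT deep barcodes, 654 (602 to 710) in KO and 964 (905 to 1025) in KI, and log2 differences of 1.16, 0.41 and 0.32. Ctnna3, a catenin gene of 1574 kb with the most UMIs among genes of this span, had 3169, 2100 and 2652 CPM in members and 1577, 1750 and 2480 in deep barcodes, and Agbl4 had 917, 869 and 743 against 378, 878 and 986. The WT deep barcodes had the highest UMI totals and the lowest marker share of the deep classes.

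With at least 0.6% marker UMIs in both classes the WT excess was not kept. The strict members over deep barcodes of at least 0.6% markers, which numbered 30 in WT, and 32 and 41 in KO and KI, gave medians of −0.14, −0.36 and −0.42 for genes of 300 kb or more, and Pcdh9 gave −0.14, −0.18 and −0.17. Of 6890 genes, 21 (0.305%) were then higher in all 3 libraries and 22 (0.319%) lower. Some of these calls rested on very low counts and are given without intervals. Esrrg, for example, stood at 2.72 CPM in the WT strict members, and Cdc20 at 0 in the WT deep barcodes of at least 0.6% markers. Of the 21, 20 had a background level above the deep level, among them Rpl32, Ndufb9, Mad2l2 and Cdc20, and only Pabpc6 was shared with the 46. Of the 22 lower genes 10 spanned 100 kb or more, against 1339 of the 6890 tested (19.4%), such as Elmo1, Lrba, Esrrg and Rab27b, and none of the 22 had a background level above the deep level. The 5 genes lower among all members were not among the 22, with log2 differences of 0.06, 0.72 and 0.68 for Isg20, 0.06, 0.93 and −0.48 for Kcne3, 0.32, −0.53 and 0.15 for Ddi1, and −0.15, −0.82 and −0.03 for Nat6. Cpsf4l stayed lower in every library, at −0.41, −0.50 and −0.78.

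As a group, 29 acrosomal genes had medians over deep barcodes of 0.40 in WT, and 0.17 and 0.44 in KO and KI, with 16 above 0 in every library, as were 1403 of all 6696 genes, and none past 2-fold. The WT median was −0.01 under TMM scaling, and the strict members had 0.18, 0.10 and 0.39. ADAM and chaperone genes had medians of 0.76, 0.64 and 0.61, with 15 of 19 above 0 and none past 2-fold, and 0.31, 0.23 and 0.61 in the strict members. Hsp90b1, a chaperone of the endoplasmic reticulum, had 357, 498 and 415 CPM in WT, KO and KI members against 81.7, 248 and 296 in deep barcodes. Late spermatid genes had medians of −0.53, −0.82 and −0.32, with 13 of 15 below 0 in all 3 libraries, as were 1339 of all 6696 genes. These differences were not kept in the strict members, whose medians were −0.12, 0.05 and 0.12 with 2 of 15 below 0, as were 1645 of 6890 genes. The list of spermatid kinases, channels and acrosome-related genes of the qRT-PCR had −0.32, −0.42 and −0.36, and 0.08, 0.12 and 0.25 in the strict members. Tssk2 had 357, 310 and 388 CPM in members against 865, 740 and 548 in deep barcodes.

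Spermatocyte genes had medians over deep barcodes of 0.80, 1.07 and 0.97, and 5 of 17 (Calm2, Cks2, Sycp3, Hormad1 and Tex101) were more than 2-fold higher in all 3 libraries, against 0.687% of all genes. The background barcodes stood at 1.70, 1.46 and 1.96 over the deep barcodes on the same list. In the strict members the medians were 0.13, 0.69 and 0.53. The 1 gene past 2-fold there was Cdc20, with 0 CPM in the WT deep barcodes of at least 0.6% markers, and none of the 5 genes named above was. Mitochondrially encoded genes had medians of 2.33 in WT, and 0.95 and 0.13 in KO and KI. Of these, 10 of 12 were above 0 in all libraries, as were 1403 of all 6696 genes. Their medians in the strict members were 0.89, 0.23 and −0.26. They took 1.17%, 1.26% and 0.648% of member UMIs, 0.196%, 0.648% and 0.619% of deep UMIs, and 0.471%, 0.431% and 0.568% of background UMIs. The median member had 0.122% in WT, and 0.160% and 0.0560% in KO and KI, and 47 WT, 64 KO and 7 KI members had at least 5%. Without them the members' share was 0.623%, 0.686% and 0.448%. In the strict members the share was 0.632%, 0.625% and 0.689%. Dynein heavy chain genes had 1.04, 0.35 and 0.01, and 0.03, −0.22 and −0.16 in the strict members. Ribosomal protein genes had −0.60, 0.25 and 0.17, whereas the strict members had 0.49, 0.82 and 0.82, with 64 of 78 genes above 0 in all libraries, as were 1273 of all 6890 genes, so that the direction in WT changed with the gate.

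Between genotypes, genes passed 2-fold in both directions among the members. Of 6915 genes, 389 (5.63%) were at least 2-fold higher in KO than in WT members and 335 (4.84%) lower, and 331 (4.79%) were higher and 363 (5.25%) lower in KI. Both comparisons use the same WT members, so their values are given side by side and not as independent results. Of the 389 genes higher in KO, 332 had the same sign in the deep barcodes and 372 in the background barcodes, but 105 and 22 passed 2-fold there. For the 335 lower genes the same sign was seen in 269 and 235, and 2-fold in 37 and 33. For KI, 287 and 311 of the 331 higher genes had the same sign and 135 and 42 passed 2-fold, and of the 363 lower genes 206 and 217 had the same sign and 47 and 22 passed 2-fold. The counting interval lay clear of 0 for all 389 higher and 335 lower genes in KO. In KI it did so for 302 of the 331 higher and 333 of the 363 lower genes. In the strict members, which leave out totals under 1000 UMIs, 263 of the 389 and 216 of the 335 were past 2-fold in KO. For KI these numbers were 236 of the 331 and 221 of the 363. The medians over all genes were −0.01 in KO and 0.02 in KI. Fewer cells of a kind and less RNA per cell cannot be told apart in these sums.

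Asprv1, a retroviral-like aspartic protease gene, had 0 UMIs in WT members, 66.2 CPM in KO and 109 in KI, at least 16.4-fold and 27.0-fold higher against a floor of 3 UMIs. It also stood at 0.210, 34.4 and 31.4 CPM in the background barcodes of WT, KO and KI, and at 0.670, 109 and 110 in deep barcodes, so that the difference ran through each library as a whole. Kcnh8, a potassium channel gene, had 51.2, 170 and 249 CPM in members, 17.4, 233 and 224 in deep barcodes and 2.52, 14.1 and 14.9 in the background. Evl, a regulator of actin filaments, had 12.1, 68.1 and 101 CPM in members and 9.37, 110 and 61.2 in deep barcodes. Igf1, the insulin-like growth factor gene, had 17.5, 80.4 and 115 CPM in members and 16.1, 56.2 and 104 in deep barcodes. In each case both mutant libraries lay above WT in members, deep barcodes and background. Sec62, Pde4b, Sbno1 and D030056L22Rik were the other genes named by the rule, at 20.2 to 24.3 CPM in WT members and 71.0 to 90.8 in the mutants. In deep barcodes the difference of Sbno1 was 0.17 in KO, and that of D030056L22Rik was 0.50 in KI and 0.29 in the strict KI members, on the log2 scale.

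Fhit, a dinucleotide hydrolase gene of 1612 kb, was the lowest by the smaller of its KO and KI changes, with 396 CPM in WT, and 70.0 and 62.8 in KO and KI members and log2 differences of −2.42 and −2.57. In deep barcodes it had 129, 95.3 and 74.6 CPM (−0.41 and −0.75) and in the background 10.3, 7.54 and 6.10. The order of the genotypes was the same, but the distance was larger in the members, and the strict members gave −2.77 and −2.24. Cntn4, a contactin gene of 1022 kb, had 104, 26.5 and 24.6 CPM in members and 56.9, 5.74 and 22.9 in deep barcodes. Tmtc2, a mannosyltransferase gene of the endoplasmic reticulum, had 150, 48.2 and 54.6 CPM in members but 70.3, 56.2 and 63.1 in deep and 6.81, 9.03 and 8.67 in background barcodes. Ccnl1, a cyclin of splicing, had 173, 64.3 and 65.5 CPM in members, 100.4, 66.6 and 61.2 in deep barcodes. Zfp87 and the gene models Gm6370, Gm6309 and 4933421I07Rik completed the list, at 116 to 142 CPM in WT members and 16.4 to 49.2 in the mutants. Some of these values rested on few UMIs, such as 6 for Zfp87 in KI members and 5 for Cntn4 in KO deep barcodes. In deep barcodes Gm6309 was on the other side in KI, with 34.8 CPM in WT, and 29.8 and 54.5 in KO and KI, and Gm6370 and 4933421I07Rik were nearly level there in KI, at log2 differences of −0.18 and −0.05.

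**Figure D5:**
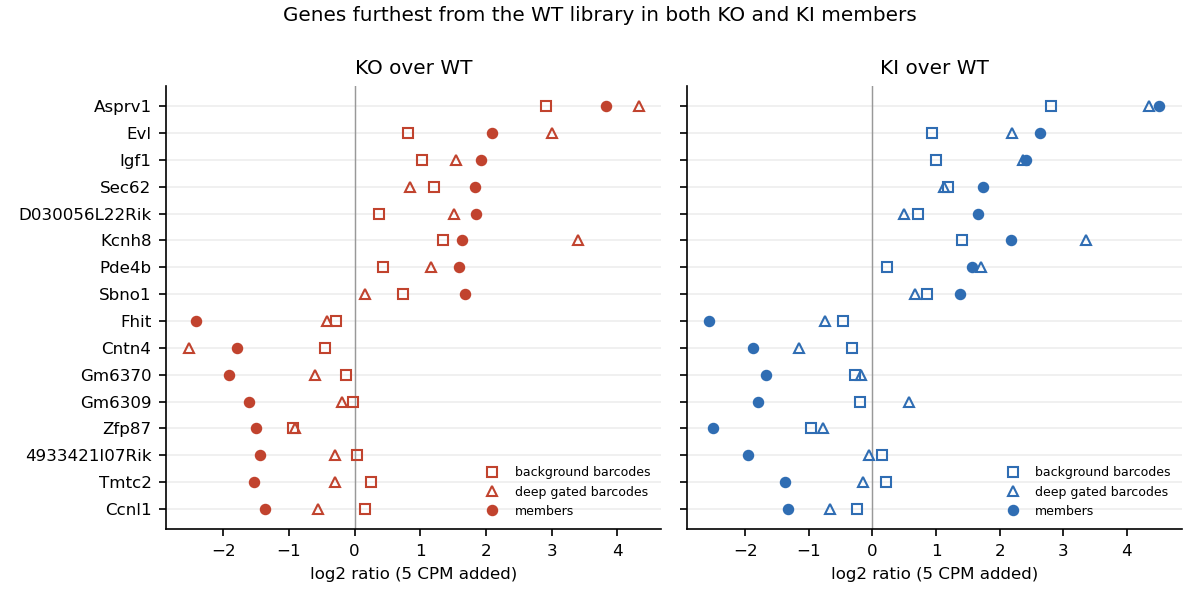
Log2 ratio of KO over WT (left) and of KI over WT (right), with 5 CPM added, for the 16 genes named for the genotypes, in members (filled circles), deep barcodes (triangles) and background barcodes (squares). Fhit lies at −2.42 and −2.57 in members and at −0.41 and −0.75 in deep barcodes, and Asprv1 is the highest gene in each panel.

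The gate markers differed by less than 2-fold between genotypes among the members they chose. The log2 difference of KO from WT was −0.37 for Acrv1, 0.07 for Spaca1, −0.49 for Tmem190 and 0.15 for Pdilt, and that of KI was 0.13, 0.64, −0.02 and 0.88. Pcdh9 had a log2 difference of −0.79 in KO and −0.33 in KI among members, −0.49 and −0.13 among the strict members, and −0.05 and 0.51 in deep barcodes, where the KI value lay on the other side of 0. The KI members include the 102 under 1000 UMIs with Pcdh9 near the background level. Of 29 other acrosomal genes 2 were lower in KO and none in KI past 2-fold, with medians of −0.16 and 0.11, against 4.84% and 5.25% of all genes that were lower. Against 5.63% and 4.79% of all genes, 5 of 17 spermatocyte genes were higher in KO and none in KI (medians 0.78 and 0.30, with 0.37 and 0.40 in the background). Of 15 late spermatid genes 3 were lower in KO and 3 in KI (−0.56 and −0.30), and the background barcodes differed likewise (−0.58 and −0.43). Of 19 ADAM and chaperone genes 3 were higher in KI and none in KO. KO members thus carried more spermatocyte transcripts than WT members, and so did KI members at like UMI totals, as was also seen in the background barcodes of both mutants. The list took 0.973%, 1.46% and 1.48% of UMIs in WT, KO and KI members under 1000 UMIs. From 1000 to under 1500 UMIs it took 0.846%, 1.19% and 1.03%, and from 1500 to 2500 UMIs 0.721%, 1.02% and 0.877%. The lower limit of the window lay closer to the most frequent background total in KO, and that total was alike in WT and KI. The part of free RNA in these differences was not tested.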

How the data were processed

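The authors deposited UMI counts per gene and barcode for 1 library each of WT, KO and KI, over 31053 genes and the full barcode list. Reads were processed with Cell Ranger on mm10 (2.1.1 in the submitters' processing notes, Cell Ranger 4 per the file headers), and the kit was a 3′ kit per the labels; whether intronic reads were counted is not given in the sources used here. No normalization had been applied to the counts.

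Counts were summed over the barcodes of a class, scaled to CPM by the class total and compared as log2 ratios with 5 CPM added, among genes of at least 20 CPM on average. A gene was called at an absolute log2 ratio of 1 or more, in all 3 libraries for comparisons between classes. Genes named over deep barcodes were the 12 highest and 12 lowest by the smallest ratio of the 3 libraries, and for the genotypes the 8 highest and 8 lowest by the smaller ratio of KO and KI, with a mean of at least 50 CPM. The members and lists were chosen with earlier results of these data known. Gene spans came from the annotation of the same build. The calling of genes over deep barcodes, the thinning and the intervals were tested on simulated data, in which all changed genes lay above the limit of 20 CPM. The gate, the lists, the span bins and the genotype comparison were not simulated. Software was Python 3.11.15 with pandas 2.3.3, scipy 1.17.1, numpy 2.4.6 and matplotlib 3.10.9.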

Additional observations from a re-analysis of the deposited data

How the results depend on the processing

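Of the values recomputed under other settings, 2099 of single genes, lists and shares and 69 of main counts and medians stayed within a set limit. Another 678 and 67 moved past it, and 3 values of single genes with a log2 of at least 1 as reported changed sign. The limit was a fixed log2 difference, not counting error, for ratios and their medians. It was the counting interval for a share and 1.5-fold for a count. Values of any size that changed sign numbered 108, among them 5 of the medians of genes of 300 kb or more below. Counts moved with the gate, the filter, the added CPM, the scaling and the deep barcodes used. With a marker share of at least 0.6% there were 358, 352 and 142 members in WT, KO and KI, with at least 5 marker UMIs 547 in KO and 163 in KI, with 1000 to 2500 UMIs 376, 487 and 174, and with both at least 1000 UMIs and 0.6% markers, chosen after seeing the data, 251, 272 and 141. The genes higher than in deep barcodes, 46 as reported, numbered 27 at a marker share of 0.6%, 71 at 1000 to 2500 UMIs, 75 with 1 CPM added, 11 with 20 CPM added, 21 under TMM scaling, 80 with no filter on low values, 14 with a filter at 50 CPM, 143 over deep barcodes of at least 8000 UMIs, 29 over deep barcodes gated after thinning to 1500 UMIs, and 21 at 1000 UMIs and 0.6% markers. The lower genes, 5 as reported, numbered 27, 21, 9, 2 and 23 at a marker share of 0.6%, at 1000 to 2500 UMIs, with 1 and 20 CPM added and under TMM scaling, 11 with protamines under 2%, 34 over deep barcodes of at least 8000 UMIs, 2 after thinning, and 22 at 1000 UMIs and 0.6% markers. The median of genes of 300 kb or more over deep barcodes became −0.20, −0.40 and −0.42 in WT, KO and KI at a marker share of 0.6%, −0.14, −0.36 and −0.42 at 1000 UMIs and 0.6% markers, and 1.29, 0.63 and 0.21 over deep barcodes of at least 8000 UMIs, and in WT 0.53 under TMM scaling and 0.62 for exonic length of 8 kb or more. Pcdh9 in WT changed sign over deep barcodes, to −0.24 at a marker share of 0.6% and to −0.14 at 1000 UMIs and 0.6% markers. The smallest value of Isg20 changed sign at the latter setting, to 0.060. Genes higher than in background numbered 734 with a filter at 50 CPM, and 539 with a filter at 20 CPM in the background barcodes alone, which was chosen after seeing the data. Genes lower than in background, 7 as reported, numbered 453 at 0.6% markers, 177 at 1000 to 2500 UMIs, 19 with protamines under 2%, 27 and 0 with 1 and 20 CPM added, 341 under TMM scaling, 3 under median ratio scaling, 11 without a filter, 2 with a filter at 50 CPM, and 513 at 1000 UMIs and 0.6% markers. With 20 CPM added, no filter, and a filter at 50 CPM, 119, 1039 and 164 genes were higher in KO than in WT members, 141, 696 and 155 lower, 100, 1350 and 108 higher in KI, and 142, 1165 and 121 lower. Genes higher in KI numbered 515 at 0.6% markers and 594 at 1000 UMIs and 0.6% markers. The cause of these changes was not tested. No paired analysis was possible between genotypes because each had 1 library, and for the same reason no replicate could be left out; the classes of barcodes were compared within each library throughout.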
